A study of Mus musculus with 4 samples.

Results

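Lung neutrophils were examined in 4 scRNA-Seq libraries made from dissociated left lung lobes of male C57BL/6 mice. There was 1 nonventilated and 1 ventilated group at each age, young meaning 2 to 3 months of age and aged meaning 22 months, and the labels describe a food-restricted diet. Whether both ages received that diet is not certain from the sources, and if the aged mice alone did, diet and age cannot be told apart. Ventilated mice received 3 h of mechanical ventilation with a tidal volume of 20 mL/kg, on pure oxygen and without positive end-expiratory pressure, under ketamine and medetomidine with buprenorphine for analgesia. The paper set a maximum volume that applied to heavier mice and reports that aged mice were in general heavier. Volume per body weight may thus differ with age, and the 2 cannot be told apart in ventilated mice. Ventilated mice also had an endotracheal tube, arterial and venous lines and an infusion of Ringer's lactate. Nonventilated mice were naive and received none of this and no anesthesia. Ventilation, oxygen, the drugs, the placing of lines and tube and the fluid therefore cannot be told apart. Cells of 3 mice were pooled into 1 library per group. There was therefore no replicate of any group, no test between groups was made, and the intervals given here are 95% intervals that cover counting error only. They are exact, except that the interval of a difference between the log2 ratios of both ages uses a normal approximation. Values are given throughout in 1 order, the young nonventilated and ventilated library first, then the aged nonventilated and ventilated library.

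A barcode was taken as a neutrophil when it held 200 to 7500 genes and at most 10% mitochondrial UMIs, at least 50 UMIs of S100a8 plus S100a9, at least 1 UMI each of at least 2 of Retnlg, Cxcr2, Csf3r and Mmp9, and no UMI of Csf1r or Cdh5. A UMI (unique molecular identifier) marks 1 captured transcript. This rule found 69, 99, 33 and 109 barcodes, 310 in all, of 11846 barcodes within the gene and mitochondrial limits and of 15428 in the matrices. The members were thus selected on measured values, the UMI counts of these genes, whose levels are given as a description.

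Neutrophils are short-lived granulocytes that leave the bone marrow ready to act and are held in large numbers in the small vessels of the lung. They make most of their granule proteins while they mature in the marrow, from azurophil granules first, through specific granules, to gelatinase granules last, so that mRNAs of early granules are lost from cells that circulate. On meeting microbial products, cytokines or injured tissue they release those granules, produce oxidants and transcribe chemokines that call in further leukocytes.

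S100a9 and S100a8, the subunits of the calcium-binding protein calprotectin, were used to choose the barcodes, so that their high level says nothing about the label. S100a9 stood at 45500, 90105, 51626 and 84144 CPM (UMIs of a gene per 1000000 UMIs of the neutrophils in that library) and S100a8 at 36454, 73041, 36215 and 72462 CPM. Both were about as high in the ventilated libraries of the 2 ages and lower in the nonventilated ones. Neutrophil genes that the rule did not use were also higher in these barcodes than in all others. Stfa2l1, a stefin protease inhibitor, averaged 682 CPM over the 4 libraries against 6.75 CPM in all other barcodes, and Nlrp12, an NLR-family sensor expressed in granulocytes, averaged 200.3 against 1.75 CPM. Hdc, which makes histamine, averaged 3402 against 61.9 CPM, Il1r2, a decoy receptor for interleukin-1, 3384 against 64.7 CPM, and Lcn2, the iron-scavenging lipocalin of specific granules, 2857 against 109 CPM. As the barcodes were chosen by related genes, these values are a description.

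Markers of other cells were low in sum but not rare, since 30, 55, 14 and 71 neutrophils held at least 2 UMIs of another cell type's marker list and 1, 1, 0 and 2 held at least 10. Of 5 azurophil granule genes, which mark immature marrow cells, 4 (Mpo, Elane, Ctsg and Ms4a3) had no UMI in any library, and the list summed to 8.6, 1.84, 0 and 4.94 CPM, all of it Prtn3. Basophil markers had no UMI, T and NK cell markers summed to at most 6.58 CPM, and alveolar macrophage and eosinophil markers to at most 8.23 CPM each. Monocyte markers summed to 118, 207, 225 and 211 CPM, led by Ly6c2 at 31.5, 138, 120 and 146 CPM, and dendritic cell markers to 40.1, 183, 105 and 224 CPM, led by Cd74 in the ventilated libraries and by H2-Aa at 60.1 CPM in the aged nonventilated one. Cd74, the class II invariant chain, was at 22.9, 171, 22.5 and 186 CPM and so was higher in both ventilated libraries. Endothelial markers summed to 135, 42.4, 128 and 47.7 CPM and epithelial markers to 149, 81.1, 143 and 118 CPM. Fibroblast markers summed to 1826, 46.1, 105 and 2274 CPM. The high sums came from 1 barcode each, a young nonventilated one with 621 fibroblast UMIs among 34698 UMIs and an aged ventilated one with 1346 among 23938 UMIs. Without these 2 barcodes the fibroblast sums were 50.9, 46.1, 105 and 61.7 CPM. Both barcodes meet the rule and are counted, and many results that rest on them are given with and without them.

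Neutrophils held less RNA than other cells. Their median UMI counts were 4702, 5446, 3999 and 5275, against 10190, 9266, 10889 and 11496 in all other barcodes within the limits. Their mitochondrial share was a median of 0.232, 0.223, 0.202 and 0.277% of UMIs, against 3.45, 3.19, 3.41 and 3.32%. The neutrophils of the 4 libraries summed to 348854, 542255, 133093 and 607875 UMIs, so that 1 UMI was worth 2.87, 1.84, 7.51 and 1.65 CPM and the aged nonventilated library was the least precise. No barcode sequence was shared between the neutrophils of any 2 libraries.

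The first question was how many neutrophils each lung yielded. They made up 2.35% (1.83 to 2.96) of young nonventilated barcodes, 2.98% (2.42 to 3.61) of young ventilated, 1.09% (0.752 to 1.53) of aged nonventilated and 4.27% (3.52 to 5.13) of aged ventilated barcodes. The intervals of the aged pair did not overlap, whereas those of the young pair did. The ratio of ventilated to nonventilated was 1.27 (0.924 to 1.75) in young mice and 3.92 (2.63 to 5.97) in aged mice. Between the ages, the share was 2.15-fold lower (1.40 to 3.36) in the aged nonventilated library and 1.44-fold higher (1.08 to 1.90) in the aged ventilated one. The vessels had been flushed before digestion, and a higher share can come from more neutrophils or from fewer other cells, which cannot be told apart here.

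The shares depended on how other markers were treated. Barcodes that met the rest of the rule but held 1 or 2 Csf1r UMIs (Csf1r encodes the macrophage colony-stimulating factor receptor, a monocyte and macrophage gene) numbered 32, 57, 10 and 85. With them the shares were 3.43, 4.69, 1.42 and 7.60%, and the ratios of ventilated to nonventilated became 1.37 (1.06 to 1.77) and 5.35 (3.83 to 7.63). When barcodes with at least 2 UMIs of another cell type's markers were left out, 39, 44, 19 and 38 remained and the shares were 1.33, 1.32, 0.628 and 1.49%. The aged ventilated share was above the aged nonventilated one under each of these settings. In young mice the shares were nearly the same without barcodes that held other markers.

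**Figure D1:**
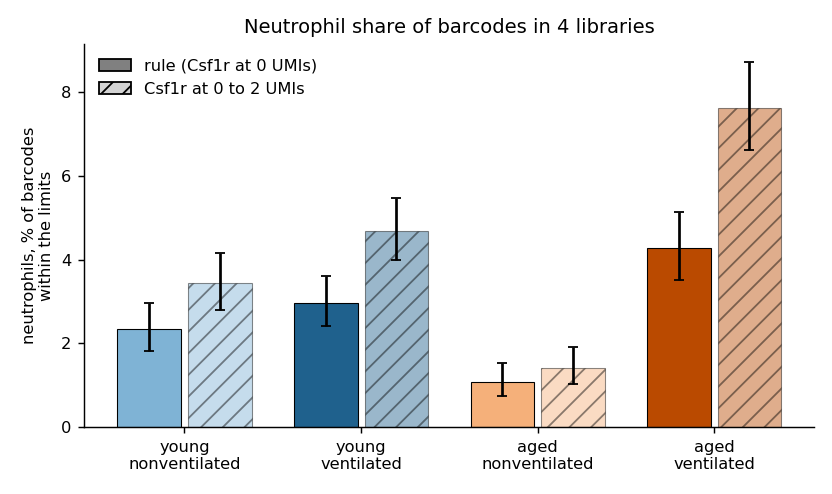
Neutrophils as a percentage of barcodes within the gene and mitochondrial limits (vertical axis, from 0) in each of the 4 libraries, under the rule with Csf1r at 0 UMIs and with Csf1r at 0 to 2 UMIs. Bars are 1 library each and error bars are exact Clopper-Pearson 95% intervals, which cover counting error only; under the rule the aged libraries stand at 1.09 and 4.27% and the young ones at 2.35 and 2.98%.

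The threshold on S100a8 plus S100a9 did not sit inside a crowd of barcodes. Their summed UMIs had a median of 343, 795, 337 and 738 per neutrophil and a lowest value of 85, 57, 50 and 83. Between 50 and 99 UMIs lay 3, 8, 3 and 1 neutrophils, and just outside, between 20 and 49 UMIs, 3, 8, 3 and 5 barcodes that met the rest of the rule. A further 0, 18, 0 and 25 barcodes passed the S100 threshold but held fewer than 2 of the other 4 genes. The genes of the rule moved in both directions between libraries. Retnlg, which encodes a resistin-like protein of granulocytes, was at 2336, 8312, 4283 and 8757 CPM, whereas Mmp9, a gelatinase, was at 785, 350, 766 and 466 CPM. Csf3r, the receptor for granulocyte colony-stimulating factor, was at 2798, 1652, 2495 and 1815 CPM and Cxcr2, the main receptor for neutrophil-attracting chemokines, at 1055, 1105, 819 and 1265 CPM.

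The second question was how the neutrophils of ventilated lungs differed from those of nonventilated lungs. A gene was kept in a comparison if its mean over the 2 libraries was at least 50 CPM and 1 library held at least 20 UMIs, and it was counted as higher or lower if it differed at least 2-fold. A gene near 0 in 1 library was thus kept only if it was high in the other, and counts of genes called are a description. Ratios are on the log2 scale with 1 UMI added to each sum. In young mice, 261 of 2500 genes kept were higher after ventilation (10.4%) and 632 were lower (25.3%). In aged mice, 201 of 2393 were higher (8.4%) and 476 were lower (19.9%). All genes kept had a median log2 ratio of -0.35 in young and -0.31 in aged mice, and of -0.24 and -0.17 when CPM were computed without the genes of the rule and mitochondrial genes. Gene ratios are to be read against these medians. Under median-of-ratios scaling the medians were 0.28 and 0.09, and the counts became 561 higher and 236 lower in young and 366 higher and 236 lower in aged mice. Whether more genes were lower or higher therefore depended on the scaling. With each cell thinned to 1000 UMIs, 151 were higher and 173 lower in young and 151 higher and 107 lower in aged mice. Without barcodes with at least 2 UMIs of another cell type's markers, 251 were higher and 420 lower in young and 249 higher and 228 lower in aged mice.

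The 2 ages share no library, so their ventilation ratios can be set side by side. Over 2213 genes kept at both ages the ratios had a Pearson r of 0.63 and a Spearman rho of 0.59 across genes, which are not independent replicates and share the composition of each library. Of the genes kept at both ages, 106 were higher at both, which is 48.2% of those higher in young and 57.3% of those higher in aged mice. For lower genes the number was 227, 46.5% of the young and 53.8% of the aged ones. These shares are to be read beside the calls among all 2213 genes. Of these, 220 were higher in young and 185 in aged mice, and 488 and 422 were lower. Only 8 genes were called in opposite directions, and without the 2 fibroblast-marker barcodes r was 0.71 over 2182 genes with 4 opposite calls.

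**Figure D2:**
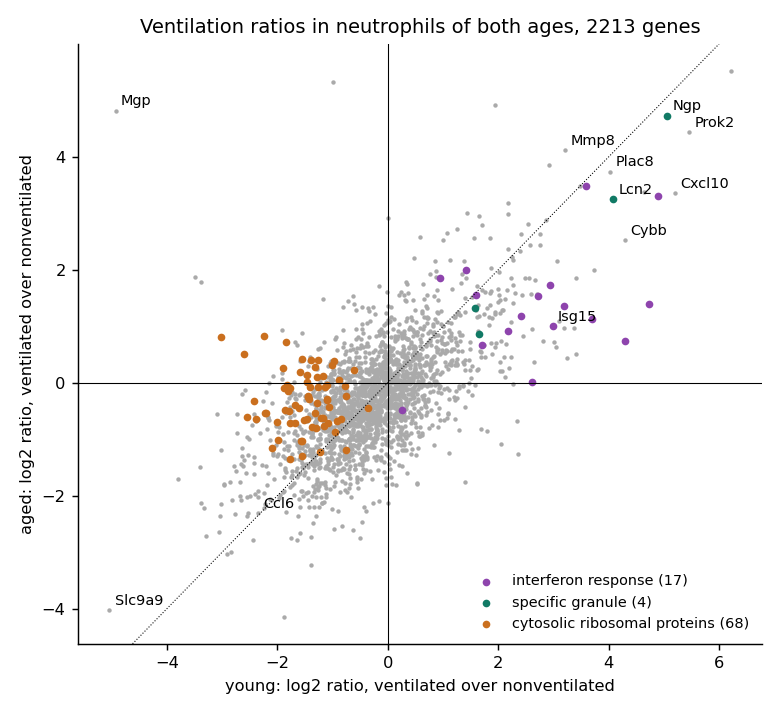
Each point is 1 of 2213 genes, with the log2 ratio of ventilated over nonventilated neutrophils in young mice on the horizontal and in aged mice on the vertical axis; interferon response, specific granule and ribosomal protein genes are coloured. Most interferon genes and all 4 specific granule genes lie at the upper right, and most interferon genes lie closer to 0 on the aged axis than on the young axis.

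Genes of specific granules, which store antimicrobial proteins, were the first group that was higher in ventilated neutrophils of both ages. In young mice 4 of 7 were kept and all 4 were higher, against 10.4% of all genes kept, and in aged mice 4 of 5 kept were higher, against 8.4%. In young mice Ngp and Cd177 reached 50 CPM in the ventilated library only, as did Ngp in aged mice. They were kept through the library where they are higher, so that their calls follow in part from the filter. Their summed level was 1278, 8834, 1525 and 7933 CPM, a ratio of 6.91 (6.27 to 7.63) in young and 5.20 (4.52 to 6.01) in aged mice. Their median stood at 2.87 in young and 1.49 in aged mice on the log2 scale, and the young value was 1.50 without the 2 fibroblast-marker barcodes when 5 genes, all of them higher, were kept. Lcn2 (chr2:32384633-32388252, minus strand, GRCm38) led the list at 333, 5663, 511 and 4922 CPM. On the log2 scale this is a ratio of 4.08 in young and 3.25 in aged mice. Ngp, neutrophilic granule protein (chr9:110419747-110423012, plus strand), was nearly absent from both nonventilated libraries at 2 and 1 UMIs and was at 284 CPM in young and 397 CPM in aged ventilated neutrophils. The ratios were 49.5 (13.5 to 413) and 52.8 (9.38 to 2093). Ngp was thus higher in ventilated neutrophils at both ages. Over all other barcodes it was at 0.416, 4.19, 0.0992 and 2.21 CPM, with log2 ratios of 3.25 and 4.175. Hp, haptoglobin, which binds free hemoglobin, was at 892, 2685, 909 and 2293 CPM, with log2 ratios of 1.59 and 1.32. Cd177, a surface protein of neutrophils, was at 22.9, 79.3, 60.1 and 122 CPM, a log2 ratio of 1.65 in young and 0.87 in aged mice, and was the member kept but not called in aged mice. Camp, the cathelicidin antimicrobial peptide, had no UMI in either nonventilated library and was at 40.6 and 59.2 CPM after ventilation. Azurophil genes, as given above, were at or near 0 in all 4 libraries.

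Other granule and secreted products were mixed. Of the list named gelatinase granule all 5 genes were kept. At each age 1 was higher, and 1, Mmp9 of the rule, was lower in young mice, beside 10.4 and 8.4% of all genes higher and 25.3% lower in young mice. Below 0 were 3 of 5 at each age. Of stefins and other protease inhibitors, 3 of 9 kept were higher and 1 lower in young mice and 2 of 8 were higher in aged mice, beside 10.4 and 8.4% of all genes, with medians of 0.26 and -0.17. Without the 2 fibroblast-marker barcodes 4 were higher and 2 lower in young and 2 higher and 1 lower in aged mice. The higher gene of the gelatinase granule list was Mmp8, neutrophil collagenase (chr9:7558456-7568485, plus strand), at 143, 1350, 128 and 2346 CPM. A place in that list does not show in which granule the Mmp8 protein is stored. Its log2 ratio of 4.12 in aged mice exceeded the 3.21 in young mice by 0.91 (0.12 to 1.69). Olfm4, a glycoprotein carried by a subset of neutrophils, was at 48.7, 197, 0 and 225 CPM, with 137 UMIs in 13 of the aged ventilated cells against none, at least 10.0-fold. A pair of secreted proteins of the whey acidic protein family, Wfdc21 and Wfdc17, were at 639, 3071, 691 and 3259 CPM and at 2001, 4490, 1495 and 4764 CPM. Both were higher in each ventilated library.

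The granule mRNAs were spread over cells unequally. Each cell was thinned to 2500 UMIs for shares of cells with a UMI, which left out 2, 0, 1 and 1 neutrophils. Lcn2 was then found in 43.3, 94.9, 53.1 and 90.7% of neutrophils (49.3, 94.9, 57.6 and 91.7% unthinned), against 1.09, 8.43, 1.45 and 9.02% of endothelial barcodes, those with at least 3 Cdh5 UMIs, whose median depths were 8944, 8969, 10312 and 10476 UMIs. Ngp was found in 2 of 67, 23 of 99, 1 of 32 and 18 of 108 neutrophils, and in at most 0.225% of endothelial barcodes. Lcn2 thus marked most ventilated neutrophils, while Ngp was detected in a minority at this depth. Summed over the list, specific granule genes took a median of 0.116, 0.798, 0.125 and 0.651% of a neutrophil's UMIs, and 96 of 99 young and 99 of 109 aged ventilated cells lay above the median of their nonventilated library.

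Of the lists examined, the interferon response had the most members higher in young ventilated neutrophils. These genes are switched on by type I and type II interferons through their receptors and encode antiviral and antimicrobial proteins. In young mice 22 of 24 kept were higher and none was lower, with a median log2 ratio of 2.82 against -0.35 over all genes. In aged mice 12 of 17 kept were higher, with a median of 1.36 against -0.31. Over all genes kept, 10.4% were higher in young and 8.4% in aged mice. The aged median depended on the processing, at 2.14 without barcodes with at least 2 UMIs of another cell type's markers, 1.86 with cells thinned to 1000 UMIs, and 1.76 under median-of-ratios scaling, where the young medians were 2.72, 2.93 and 3.43. It was lower, at 0.99, with an S100 threshold of 20 UMIs. The 28 genes of the list summed to 2849, 16852, 3013 and 8143 CPM, a ratio of 5.91 (5.54 to 6.32) in young and 2.70 (2.44 to 3.00) in aged mice. The nonventilated libraries were close to each other and the young ventilated library was the highest.

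Isg15, a ubiquitin-like protein, was at 318, 2539, 436 and 885 CPM. Its log2 ventilation ratios of 2.98 in young and 1.00 in aged mice gave a difference of -1.98 (-2.46 to -1.51). Rsad2, the antiviral enzyme viperin, was at 88.9, 1195, 195 and 443 CPM, and its 2 log2 ratios, 3.71 and 1.13, differed by -2.58 (-3.34 to -1.81). For both genes the interval of the difference left out 0. Isg15 was found in 34.3, 90.9, 31.2 and 57.4% of neutrophils thinned to 2500 UMIs (46.4, 94.9, 39.4 and 67.9% unthinned), against 14.9, 78.9, 19.3 and 31.5% of endothelial barcodes. Rsad2 was found in 11.9, 65.7, 21.9 and 34.3% (11.6, 75.8, 27.3 and 44.95% unthinned), against 2.07, 58.4, 3.38 and 4.75%. The shares of both genes were thus above those of endothelial barcodes in all 4 libraries, but some intervals overlapped. These were Isg15 in the aged nonventilated library (16.1 to 50.0 against 16.7 to 22.2%) and Rsad2 in the young ventilated one (55.4 to 74.9 against 55.1 to 61.7%). The endothelial shares of both genes themselves differed with ventilation in young mice, so that they are no measure of free RNA. Ifit1, Ifit2, Ifit3 and Ifit3b, which bind foreign RNA and lie in 1 cluster on the plus strand of chromosome 19 (chr19:34550694-34650009), had 7, 1, 2 and 0 UMIs in young nonventilated neutrophils. In young ventilated neutrophils they were at 682, 177, 297 and 120 CPM. There Ifit1 and Ifit3 were found in 44.4 and 34.3% of thinned neutrophils (51.5 and 45.5% unthinned), below the 54.6 and 61.4% of endothelial barcodes. In endothelial barcodes of young nonventilated mice the shares were 12.8 and 4.67%, so that these cells differed with ventilation themselves and are no measure of free RNA for these genes. In aged ventilated neutrophils they were at 220, 13.2, 69.1 and 46.1 CPM. Ifit3 and Ifit3b have similar sequences, so that reads could be split between them. For Ifit1, the difference between the ages, -1.60, had an interval that held 0 (-3.53 to 0.34), since the aged nonventilated value rests on 2 UMIs.

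Not every interferon gene differed between the ages in this way. Trim30a was at 367, 1119, 301 and 898 CPM, a log2 ratio of 1.60 in young and 1.55 in aged mice. Irf7, which amplifies the type I response, was at 48.7, 312, 82.7 and 88.8 CPM, a log2 ratio of 2.60 in young and 0.01 in aged mice. Slfn4 was at 313, 2410, 391 and 1321 CPM, Ifitm3, which blocks viral entry, at 439, 2890, 481 and 1418 CPM, and Gbp2, an interferon-inducible GTPase, at 74.5, 705, 113 and 306 CPM. For these 3 genes the aged ventilated value lay between the young ventilated value and both nonventilated values. Over the 2213 genes kept at both ages, 230 had a ventilation ratio at least 2-fold smaller in aged mice and 269 at least 2-fold larger.

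Promoters of 3 of these genes are shown because their members differed together between libraries. Sequences are from RefSeq for GRCm38.p6, 5′ to 3′ on the gene's strand, and capitals mark matches to GAAANNGAA, a core of the sites that interferon regulatory factors bind, or to GGNNTTTCC, a core of NF-kB sites, on either strand. Copies of the first motif may overlap each other.
Isg15, chr4:156200831-156200916, minus strand, 98 to 13 bases before the start: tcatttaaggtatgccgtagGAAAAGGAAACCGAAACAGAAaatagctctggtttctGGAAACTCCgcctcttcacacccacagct
Ifit1, chr19:34640760-34640833, plus strand, 129 to 56 bases before the start: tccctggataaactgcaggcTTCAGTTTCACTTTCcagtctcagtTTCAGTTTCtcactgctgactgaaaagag
Gbp2, chr3:142620585-142620633, plus strand, 78 to 30 bases before the start: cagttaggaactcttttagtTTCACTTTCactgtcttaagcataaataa
Isg15 and Ifit1 hold 3 copies of the first motif each and Gbp2 holds 1. In the 250 bases before the start, the first motif was found in 11 of 23 interferon genes with an entry (47.8%), in 190 of 1987 genes kept in the young comparison (9.56%) and in 8.18% of all 27025 genes with an entry. Of 6 specific granule genes with an entry, 1 held it. A match is a description of the letters and not a site shown to be used.

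In all other barcodes of the same lungs, 16 of 20 interferon genes kept were higher after ventilation in young and 1 of 11 in aged mice. Over all genes kept in these barcodes, 245 of 4159 and 124 of 4121 were higher. Over all other barcodes, the list summed to 2684, 7199, 2529 and 3458 CPM, with medians of 1.81 in young and 0.45 in aged mice. In the 2 ventilated libraries the list was lower in aged than in young mice by a median of -1.20 in neutrophils and by -1.18 in all other barcodes. Within neutrophils, the list took a median of 0.175, 1.27, 0.173 and 0.575% of a cell's UMIs. All 99 young ventilated cells and 102 of 109 aged ventilated cells lay above the median of their nonventilated library, and 19 of 109 aged ventilated cells lay above the young ventilated median. How much of these counts is free RNA taken up by the droplets was not tested.

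**Figure D3:**
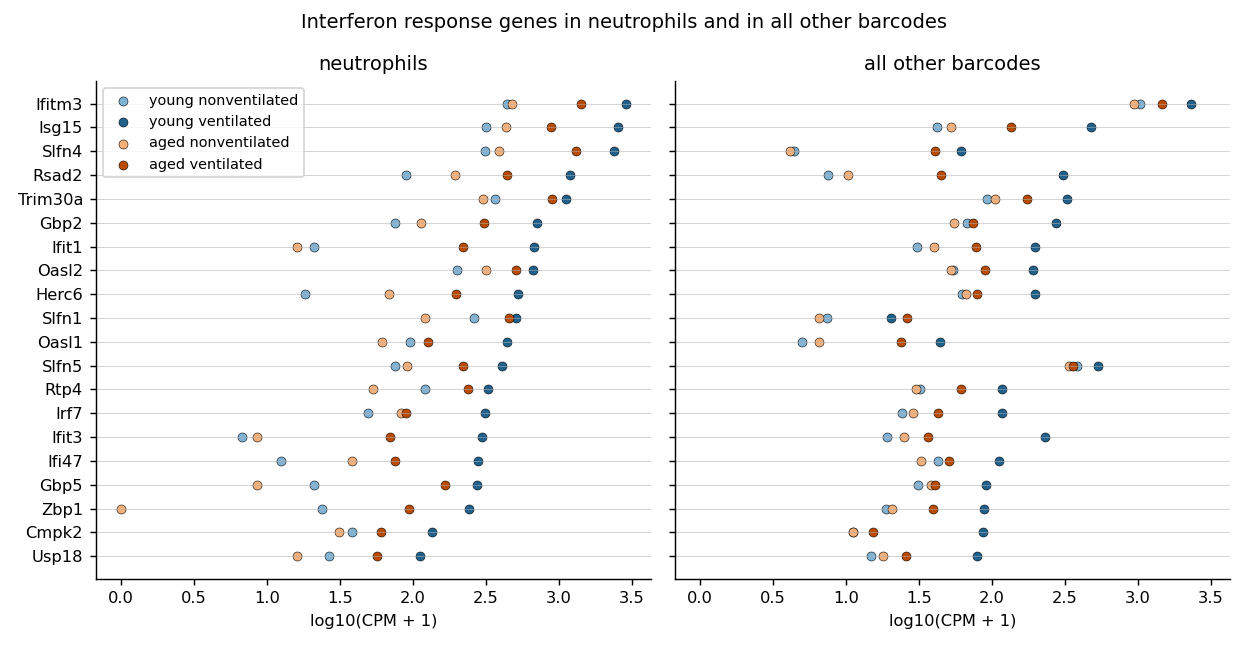
Levels of 20 interferon response genes as log10 of CPM plus 1 in the 4 libraries, in neutrophils and in all other barcodes (panels), with 1 point per gene and library. In neutrophils the young ventilated points lie highest for most genes, as for Isg15 at 2539 CPM against 318, 436 and 885 CPM in the other libraries.

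Cytokine and chemokine genes were mixed. In young mice 7 of 13 kept were higher and 2 lower (median log2 ratio 1.43), and in aged mice 5 of 12 were higher and 1 lower (median 0.59). Over all genes kept, 10.4% were higher and 25.3% lower in young mice and 8.4 and 19.9% in aged mice, with medians of -0.35 and -0.31. Cxcl2, a chemokine that attracts neutrophils through Cxcr2, was at 2213, 7410, 2893 and 6783 CPM, with a log2 ratio of 1.74 in young and 1.23 in aged mice. Il1b, the most abundant cytokine mRNA of these cells, was at 8522, 8277, 7514 and 7673 CPM, with log2 ratios of -0.04 and 0.03. Il1rn, the interleukin-1 receptor antagonist, was at 209, 625, 233 and 602 CPM. Cxcl2 and Il1rn were thus higher after ventilation at both ages while Il1b was not.

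Ccl4, a chemokine for monocytes and T cells, was at 272, 1363, 263 and 813 CPM, a log2 ratio of 2.31 in young and 1.59 in aged mice. Ccl3 was at 45.9, 516, 316 and 461 CPM and Tnf at 204, 612, 706 and 689 CPM. In the aged nonventilated library, however, 88.1% of Ccl3 UMIs and 84.0% of Tnf UMIs came from 1 cell, so that the aged log2 ratios of 0.52 and -0.05 rest on that cell. Cxcl10, a chemokine for activated T cells (chr5:92346638-92348889, minus strand), was at 25.8, 1057, 15.0 and 229 CPM. It was found in 2.99, 33.3, 3.13 and 15.7% of thinned neutrophils, against 3.04, 39.0, 4.59 and 6.33% of endothelial barcodes, so that the young ventilated share was not above that of endothelial barcodes. Csf1, the macrophage growth factor, was at 290, 140, 338 and 357 CPM, called lower after ventilation in young mice, with log2 ratios of -1.04 and 0.05. Ccl6 (chr11:83587882-83593087, minus strand) was the member that was lower at both ages, at 1605, 314, 2029 and 408 CPM, with log2 ratios of -2.35 and -2.31. It was found in 92.5, 40.4, 93.8 and 46.3% of thinned neutrophils, against 1.96, 2.02, 2.42 and 1.90% of endothelial barcodes.

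Other cytokines had been measured as mRNA in lung tissue. In neutrophils, Cxcl1 was at 45.9, 55.3, 0 and 69.1 CPM, Il6 at 8.6, 1.84, 0 and 26.3 CPM and Ccl2 at 17.2, 3.69, 0 and 1.65 CPM. Csf2 had no UMI. Neutrophils therefore held few or no transcripts of these 4 genes at this depth.

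The promoters of Cxcl2 and Cxcl10 are shown because the 2 chemokines hold different motifs, with capitals as above. Both chemokines were higher in the ventilated library at each age, and whether the motifs bear on their levels was not tested.
Cxcl2, chr5:90903783-90903850, plus strand, 116 to 49 bases before the start: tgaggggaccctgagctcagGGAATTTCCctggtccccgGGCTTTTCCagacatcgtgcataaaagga
Cxcl10, chr5:92349019-92349122, minus strand, 233 to 130 bases before the start: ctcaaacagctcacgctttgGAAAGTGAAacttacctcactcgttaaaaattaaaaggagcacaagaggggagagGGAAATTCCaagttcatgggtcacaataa
Cxcl2 holds 2 copies of the NF-kB motif and none of the other, and Cxcl10 holds 1 of each. The NF-kB motif was found in 7 of 14 cytokine genes and in 7 of 14 NF-kB feedback genes with an entry (50%), in 5 of 23 interferon genes, in 7.80% of the genes kept in the young comparison and in 5.62% of all genes with an entry.

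Among genes that NF-kB switches on, many of which then restrain it, 6 of 17 kept in young mice were higher and 1 was lower, beside 10.4 and 25.3% of all genes. In aged mice 3 of 17 were higher, beside 8.4% of all genes, and 4 without the 2 fibroblast-marker barcodes. Sod2, the mitochondrial superoxide dismutase, was at 143, 1058, 120 and 939 CPM, with log2 ratios of 2.86 and 2.88. Nfkbia, the inhibitor that holds NF-kB in the cytoplasm, was at 1984, 3528, 2149 and 3836 CPM, 0.83 higher on the log2 scale at each age. Sod2 and Nfkbia thus had nearly the same ratio at the 2 ages.

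Receptors for bacterial products and danger signals were higher after ventilation or within 2-fold, and of 15 pattern recognition genes kept at each age 3 were higher, beside 10.4 and 8.4% of all genes, and none was lower. Without the 2 fibroblast-marker barcodes 4 of 16 were higher in young mice. Cd14, the co-receptor for endotoxin, was at 682, 2233, 684 and 2160 CPM and Tlr2, a receptor for bacterial lipoproteins, at 227, 699, 240 and 551 CPM. The formyl peptide receptors Fpr1 and Fpr2, which steer neutrophils to bacteria and damaged mitochondria, were at 123, 507, 165 and 668 CPM and at 91.7, 441, 150 and 569 CPM. All 4 were higher in both ventilated libraries, with log2 ratios between 1.16 and 2.23. Ccrl2, a chemerin-binding receptor, was at 390, 1217, 819 and 981 CPM, a log2 ratio of 1.63 in young and 0.25 in aged mice. Among chemoattractant receptors as a whole 3 of 9 were higher and 1 lower at each age, beside 10.4% higher and 25.3% lower over all genes in young and 8.4 and 19.9% in aged mice.

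The lower member was Cxcr4, which binds the marrow chemokine Cxcl12 and is known to accumulate on neutrophils that have circulated for long, at 404, 142, 406 and 169 CPM. It was found in 62.7, 25.3, 71.9 and 27.8% of thinned neutrophils, against 1.96, 0.449, 2.54 and 0.633% of endothelial barcodes. Of 10 adhesion and trafficking genes kept, 2 were lower and 1 was higher at each age, which is near the shares over all genes kept (25.3 and 19.9% lower, 10.4 and 8.4% higher). Without the 2 fibroblast-marker barcodes 1 was lower in aged mice. The lower ones were Cd44 and Itga4 at both ages, while the higher one was Cd177 in young and Icam1 in aged mice. Cd44, a hyaluronan receptor, was at 3976, 1826, 3719 and 1824 CPM and Itga4, an integrin chain, at 401, 70.1, 278 and 69.1 CPM. Icam1, an adhesion molecule that binds integrins, was at 361, 655, 180 and 836 CPM, and its log2 ratio of 2.16 in aged mice exceeded the 0.85 in young mice by 1.31 (0.66 to 1.95). Cd101, a surface protein of mature neutrophils, was found in 35.8, 2.02, 40.6 and 7.41% of thinned neutrophils (47.8, 5.05, 48.5 and 8.26% unthinned), against 2.83, 1.01, 5.19 and 1.42% of endothelial barcodes. The young ventilated value was thus close to that background.

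Of the genes of iron storage and defence against oxidants, 3 of 10 kept in young (2 without the 2 fibroblast-marker barcodes) and 3 of 11 kept in aged mice were higher, against 10.4 and 8.4% of all genes, and none was lower. The list summed to 18031, 41425, 21571 and 37161 CPM, a ratio of 2.30 (2.23 to 2.36) in young and 1.72 (1.66 to 1.79) in aged mice. Its most abundant member was Fth1, the ferritin heavy chain, at 7255, 27992, 9828 and 22916 CPM. Ftl1, the light chain, was at 3448, 3390, 4185 and 4026 CPM and was not called. Hmox1, which degrades heme and frees its iron, was at 25.8, 151, 37.6 and 280 CPM. Cybb, the catalytic subunit of the phagocyte NADPH oxidase, was at 31.5, 673, 105 and 645 CPM. Cybb was found in 4.48, 53.5, 9.38 and 58.3% of thinned neutrophils (8.70, 62.6, 9.09 and 67.9% unthinned), against 1.41, 1.69, 3.87 and 2.53% of endothelial barcodes. The gene was thus detected in most ventilated and few nonventilated neutrophils.

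Of 14 survival and apoptosis genes kept, 7 were higher in young ventilated neutrophils and none lower, and 3 were higher and 1 lower in aged ones, beside 10.4% higher and 25.3% lower over all genes in young and 8.4 and 19.9% in aged mice. Cflar, which blocks caspase-8, was at 68.8, 456, 158 and 582 CPM and Fas, a death receptor, at 181, 662, 203 and 548 CPM. Mcl1, a survival factor that neutrophils depend on, was at 2265, 1903, 1991 and 1946 CPM and was not called. Of the 7 genes higher in young mice, 3 were Bcl2a1 genes, among them Bcl2a1b at 152, 728, 323 and 452 CPM, and these are uncertain because the copies are near-identical and reads could be split between them. Class I antigen presentation genes were higher for 6 of 9 kept in young mice, or 4 of 9 without the 2 fibroblast-marker barcodes, against 10.4% of all genes. In aged mice 1 of 11 kept was higher, near the 8.4% over all genes. B2m, the light chain of class I molecules, was at 754, 1630, 804 and 1425 CPM, and Psmb8, an immunoproteasome subunit, at 88.9, 293, 60.1 and 97.1 CPM.

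**Figure D4:**
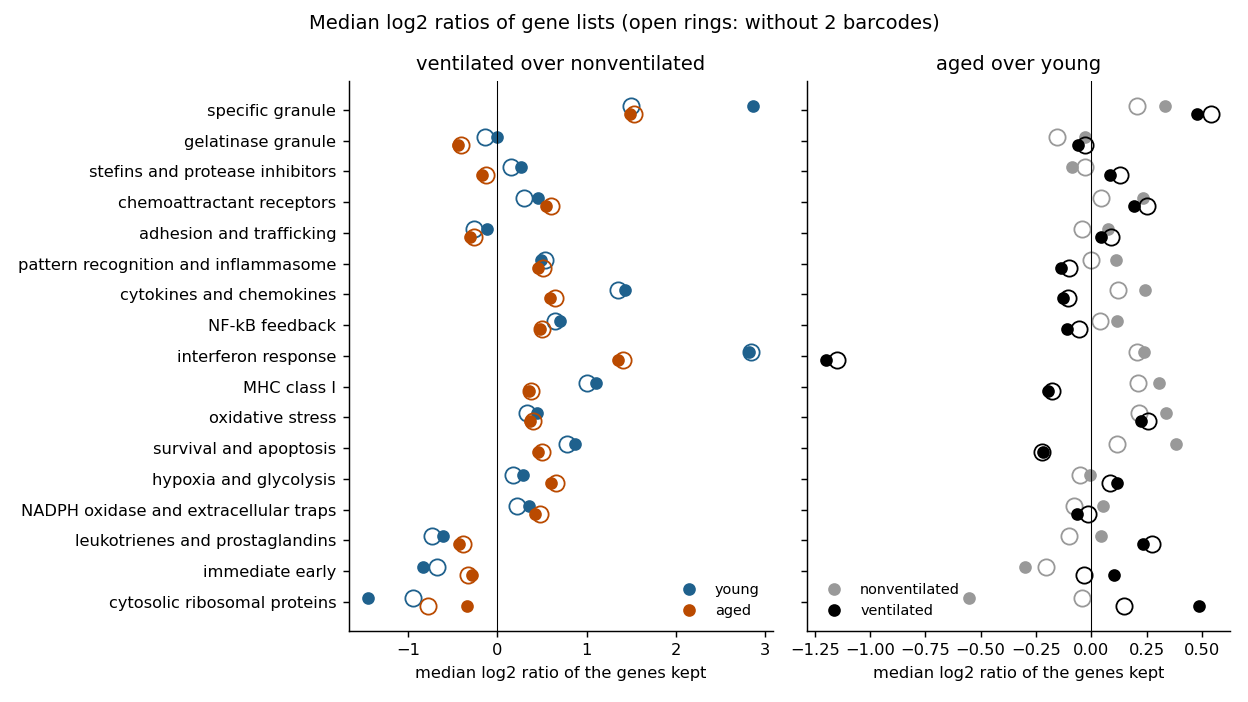
Median log2 ratio of the genes kept in each of 17 gene lists, for ventilated over nonventilated neutrophils (left panel, young and aged) and for aged over young neutrophils (right panel, nonventilated and ventilated); open rings leave out the 2 fibroblast-marker barcodes. Interferon response has the highest young ventilation median after specific granule, at 2.82 against 2.87, the order being turned without the 2 barcodes (2.85 against 1.50), and the lowest median for aged over young ventilated neutrophils, at -1.20.

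Ribosomal protein genes were lower for 60 of 71 kept in young mice and 8 of 68 kept in aged mice, against 25.3 and 19.9% of all genes kept, so that the aged count was below the share over all genes. They had medians of -1.45 and -0.34, the aged median being 0.051 under median-of-ratios scaling. Here the 2 fibroblast-marker barcodes counted for much, and without them the medians were -0.95 and -0.78. Without them 29 of 64 were lower in young and 20 of 63 in aged mice, beside 555 of 2427 and 471 of 2352 over all genes, so that the aged count then lay above the share over all genes. Immediate early genes, which respond to stimulation and also to tissue dissociation, were lower for 5 of 21 kept in young and 4 of 20 kept in aged mice, near the shares over all genes. Without the 2 fibroblast-marker barcodes 3 of 20 were lower and 1 was higher in young mice. They had medians of -0.84 and -0.29, and the aged median was 0.10 under median-of-ratios scaling, 0.11 for that scaling without the 2 barcodes, and 0.15 with cells thinned to 1000 UMIs. Fosb was at 347, 66.4, 398 and 98.7 CPM and Atf3 at 284, 48.0, 271 and 114 CPM, both lower in both ventilated libraries. Egr1 was at 763, 258, 173 and 329 CPM with the 2 fibroblast-marker barcodes counted, and so differed in opposite directions at the 2 ages. No Egr1 value without them is given here. Without them the immediate early list summed to 16896 in place of 18131 CPM in the young nonventilated library. In the aged ventilated library it summed to 11335 in place of 11767 CPM.

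Among single genes, Slc9a9, an endosomal sodium-proton exchanger (chr9:94669909-95230445, plus strand), had the lowest ratio in young mice among the named genes that did not rest on 1 cell. It was at 361, 9.22, 180 and 9.87 CPM, 39.2-fold lower (16.4 to 123) in young and 18.3-fold lower (7.28 to 54.6) in aged ventilated neutrophils. In all other barcodes its log2 ratios were -1.63 and -0.97. Zfp36l2, an mRNA-decay protein, was at 229 and 14.7 CPM in young mice, 15.5-fold lower (7.52 to 37.2), and Pde3b, a cyclic nucleotide phosphodiesterase, was at 195 and 9.87 CPM in aged mice, 19.8-fold lower (7.97 to 58.8). Tbxas1, thromboxane synthase, was at 158 and 14.8 CPM in aged mice, 10.7-fold lower. Of the 8 largest ratios downward in young mice, 5 (Plcxd3, Unc5c, Pdzrn3, Nop58 and Nr4a2) had 80.7 to 100% of their nonventilated UMIs in the young nonventilated fibroblast-marker barcode. Without it, Nr4a2 was still at 54.1 and 7.38 CPM, a log2 ratio of -2.64, while the other 4 had at most 9.55 CPM left in the young nonventilated library. Of the 8 largest ratios upward in aged mice, Dcn and Mmp3 had 100 and 98.8% of their ventilated UMIs in the aged ventilated fibroblast-marker barcode.

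Prok2, prokineticin-2, a chemoattractant-like peptide of neutrophils (chr6:99711299-99726392, minus strand), had no UMI in either nonventilated library and 67 and 98 UMIs after ventilation. These are 124 and 161 CPM, at least 14.4-fold and at least 7.15-fold. It was found in 11 of 99 and 10 of 108 thinned ventilated neutrophils. Plac8 was at 63.1, 1073, 45.1 and 699 CPM and was found in 8.96, 69.7, 12.5 and 51.9% of thinned neutrophils, against 8.80, 13.3, 10.8 and 14.2% of endothelial barcodes. The nonventilated shares were thus at that background. Ttc39c had no UMI in young nonventilated neutrophils and 79 UMIs in 36 young ventilated ones, at least 16.9-fold.

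**Figure D5:**
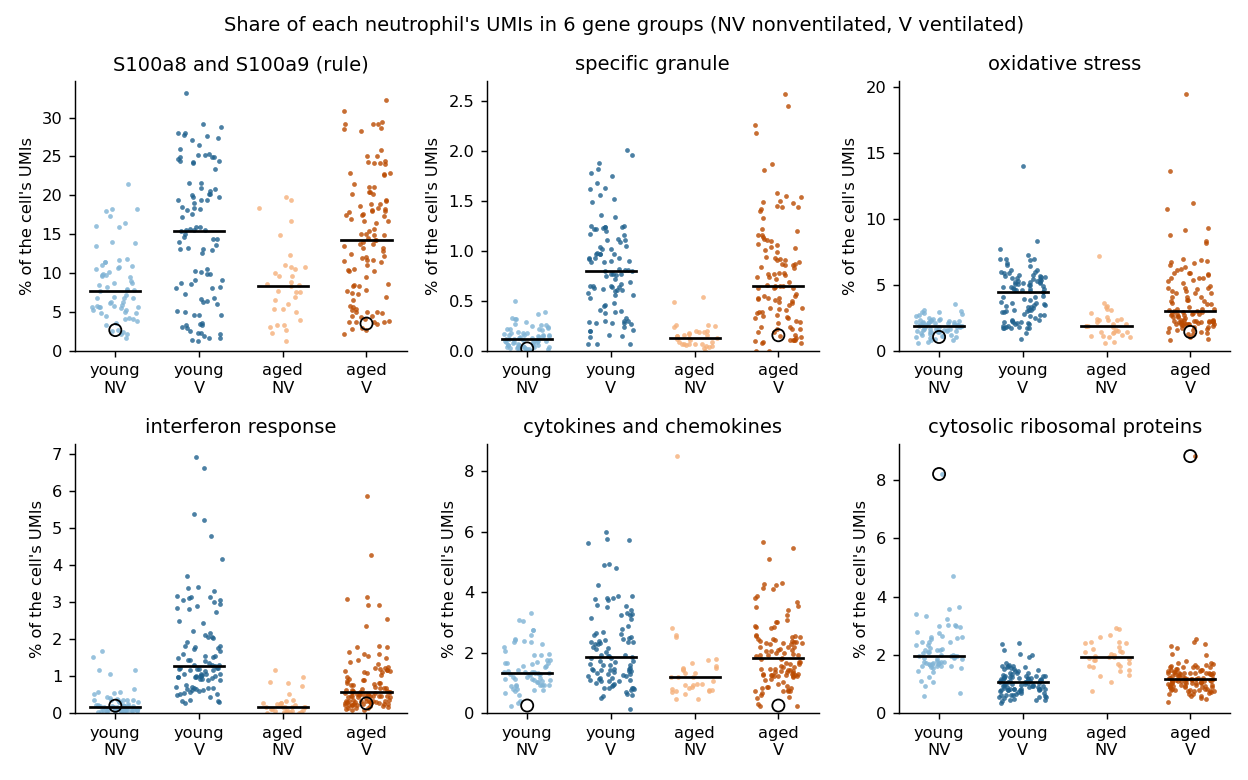
Percentage of each neutrophil's UMIs taken by 6 gene groups in the 4 libraries, with 1 point per cell, a black line at the median and open circles for the 2 fibroblast-marker barcodes. The medians for interferon response are 0.175, 1.27, 0.173 and 0.575%, and for specific granule genes 0.116, 0.798, 0.125 and 0.651%.

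The third question was how neutrophils differed with age. In nonventilated mice 91 of 2428 genes kept were higher in aged mice (3.75%) and 165 were lower (6.8%), and without the 2 fibroblast-marker barcodes the counts were 66 and 96 of 2251. In ventilated mice 88 of 2252 were higher (3.91%) and 63 were lower (2.8%), or 65 and 60 of 2227 without the barcodes. Median-of-ratios scaling gave 50 and 130 for the ventilated pair. Both age comparisons thus called fewer genes than either ventilation comparison. Across the 1924 genes kept in both, the age ratios had a Pearson r of -0.22, and 1 gene was higher at both states and none was lower at both. Without the 2 barcodes r was -0.08 over 1867 genes.

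In nonventilated neutrophils, Eea1, an early endosome protein, was at 68.8 CPM in young and 391 CPM in aged mice, 5.68-fold higher (3.44 to 9.63). Dgkg, a diacylglycerol kinase, was at 115 and 398 CPM, 3.47-fold higher (2.26 to 5.37). Rgs3, a regulator of G-protein signaling, was at 100 and 7.51 CPM, 13.4-fold lower (2.24 to 542) on a single aged UMI. These 3 did not rest on the fibroblast-marker barcodes, whereas 6 of the 8 largest ratios downward had most of their young UMIs in one. The interferon list showed a median of 0.24 over 12 genes kept, with 1 higher and 2 lower, beside 3.75% higher and 6.8% lower over all genes. Without the 2 fibroblast-marker barcodes 0 were higher and 2 lower. The sign of the median turned, to -0.67 without barcodes with at least 2 UMIs of another cell type's markers and to -0.56 with cells thinned to 1000 UMIs.

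In ventilated neutrophils, interferon genes were lower in aged mice. All 25 genes kept were below 0 and 15 were at least 2-fold lower, against 2.8% of all genes kept, and the summed level was 2.07-fold lower (2.00 to 2.14). The median of -1.20 was -0.55 when barcodes with at least 2 UMIs of another cell type's markers were left out. Cxcl10 was 4.62-fold lower (3.83 to 5.60), and Olr1, an oxidized lipoprotein receptor, was at 347 CPM in young and 75.7 CPM in aged mice, 4.58-fold lower (3.30 to 6.47). G0s2, a lipase inhibitor, was at 2606 and 1087 CPM. Among genes higher in aged ventilated neutrophils, Acsl1, which activates fatty acids, was at 81.1 and 225 CPM, 2.78-fold higher, and Slc40a1, the iron exporter ferroportin, at 35.0 and 97.1 CPM, 2.77-fold higher. Lcn2, Cxcl2, Cd14 and Il1b, given above, differed by less than 2-fold between the 2 ventilated libraries.

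Part of the neutrophil ratios had the same sign over all other barcodes. Of the 261 genes higher and 632 lower in young ventilated neutrophils, 233 and 468 had the same sign over all other barcodes, and 112 and 60 also passed the same thresholds there. In aged mice the numbers were 174 of 201 and 331 of 476 with the same sign, and 64 and 11 past the thresholds. Over all other barcodes, 245 genes were higher and 231 lower of 4159 kept in young mice, and 124 and 104 of 4121 in aged mice. These sums mix many cell types whose shares differ between libraries. They also hold the 32, 57, 10 and 85 barcodes that the rule left out for 1 or 2 Csf1r UMIs. S100a8 was at 202, 732, 93.6 and 1501 CPM in these sums. How much of the shared direction came from such barcodes was not tested. The counts with the same sign have no share over all genes beside them and are a description.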

How the data were processed

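The authors flushed the vessels, digested the left lobe, cryopreserved the cells and, after thawing, made 1 droplet library of 3 pooled mice per group. They aligned reads to mm10 with Cell Ranger 7.0.0, per the labels, and deposited raw counts, 1 whole number of UMIs for each of 32285 genes in each barcode, which they had not normalized. All barcodes of the 4 matrices summed to 41222284, 44404172, 45218176 and 40655452 UMIs.

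From these counts, UMIs of the neutrophils were summed per library and expressed as CPM. Ratios carry exact conditional binomial intervals, shares Clopper-Pearson intervals and levels Poisson intervals, all at 95%. They cover counting error only, and no test between groups was made because each group is 1 library. Folds against a library with no UMI use 3 UMIs per library in its place. No doublet caller was run. Positions come from a GRCm38 annotation matched by identifier for 32235 of 32285 genes, and promoters from RefSeq. Analyses used scipy 1.17.1, numpy 2.4.6, pandas 2.3.3 and matplotlib 3.10.9 under Python 3.11.15. Only the step that computes ratios was tested on simulated data, which were Poisson counts of summed genes. Such counts do not hold UMIs that gather in 1 cell.

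The members and gene lists were chosen with earlier results of these data known. Genes were named by a rule: per comparison the 8 largest ratios upward and 8 downward that reached 50 CPM on average, at least 20 UMIs in 1 library, an interval that leaves out 1 and a CPM at least that of all other barcodes in the library where they are higher, without genes of the rule and mitochondrial genes, then list genes averaging 50 CPM or more in the 4 libraries, and cytokines the study measured in tissue. Camp, Cd101, Nlrp12, H2-Aa, the azurophil genes and the genes with opposite directions at the 2 ages fall outside it and were chosen after their values were seen. Of the lists' genes, 2 had no row under their symbol and are not analysed here. Alternatives varied the rule, cell limits, scaling, weighting and depth of cells, the value added and the gene filter. Some results are not reported here.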

Additional observations from a re-analysis of the deposited data

Results flagged for a closer look

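Genes kept at both ages whose neutrophil levels moved at least 2-fold in opposite directions after ventilation in young and in aged mice, with counting intervals that left out 1 at both ages, were looked at again, and in no case was the difference tested. The difference is the aged log2 ratio minus the young one. Mgp, matrix Gla protein, was at 1344, 42.4, 45.1 and 1482 CPM (young nonventilated, young ventilated, aged nonventilated, aged ventilated), a difference of 9.75. Gsn, gelsolin, was at 634, 59.0, 255 and 910 CPM, a difference of 5.18, and Apoe was at 247, 20.3, 67.6 and 275 CPM, a difference of 5.37. Without the 2 fibroblast-marker barcodes the log2 ratios of these genes were 0.48 and 0.06 for Mgp, -1.79 and -1.62 for Gsn and -1.79 and -1.76 for Apoe, so that the opposite directions were gone.

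Of the others, Phf3 and Gm43661 were called in opposite directions also without those barcodes, whereas Ints6 then held fewer than 20 UMIs in each aged library and Epsti1 was under 2-fold in young mice. Phf3 was at 146, 64.5, 30.0 and 104 CPM, a difference of 2.65, with log2 ratios of -1.20 and 1.55 without the 2 barcodes. Gm43661 was at 22.9, 105, 143 and 69.1 CPM, a difference of -3.14, with ratios of 1.90 and -1.03 without them. Ints6, a subunit of the Integrator complex, was at 31.5, 88.5, 120 and 36.2 CPM, a difference of -3.15, with ratios of 1.83 and -2.22 without them, and Epsti1, an interferon-induced gene, was at 143, 312, 308 and 132 CPM, a difference of -2.34, with ratios of 0.95 and -1.19 without them. Epsti1 differed in the same sense as most of the interferon list, without standing in it.

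Barcodes that met the rest of the rule but held 1 or 2 Csf1r UMIs are outside the neutrophil sums under the rule. In gene levels they are part of all other barcodes. They made up 1.71% (1.30 to 2.21) of young ventilated and 3.33% (2.67 to 4.10) of aged ventilated barcodes, above the 1.09 and 0.331% of the nonventilated libraries. The difference was not tested, as each group is 1 library.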

How the results depend on the processing

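Shares of barcodes, counts of genes, list medians and ratios of named genes were recomputed with 1 choice changed at a time and, in 1 setting, with 2 changed together. Shares of cells with a UMI, correlations across genes and differences between the ratios of the 2 ages were not recomputed in this way. S100 thresholds of 20 or 100 UMIs, 1 marker in place of 2, 5 CPM added, and CPM without genes of the rule and mitochondrial genes moved no share or count of genes beyond its interval or 1.5 times and turned no ratio of a named gene. The settings with Csf1r at 0 to 2 UMIs, without the 2 fibroblast-marker barcodes, and the latter with median-of-ratios scaling were chosen after seeing the data. No paired analysis was made, as each group is 1 library. A ratio is said to turn here only if it was at least 2-fold, its interval left out 1 and its sign changed. Sign changes of other ratios are not counted as turned. The 298 ratios of named genes gave 3874 values over the settings. Of these values, 3309 stayed within the interval of their ratio, 497 lay outside it without being counted as turned, and 68 turned, in 22 gene and comparison pairs. Where no value is given for a cause, the cause was not tested.

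Without barcodes with at least 2 UMIs of another cell type's markers, the shares were 1.33, 1.32, 0.628 and 1.49%. There 251 genes were higher and 420 lower in young and 249 higher and 228 lower in aged mice after ventilation, and 54 were higher and 105 lower with age in nonventilated mice. The median log2 ratio was 2.14 for interferon genes in aged mice and -1.17 and -0.63 for ribosomal protein genes in young and aged mice. Ratios that turned were, after ventilation in young mice, Nop58 (0.91) and Mgp (0.17), and in aged mice Dcn, Mmp3 and Mgp (each -1.32) and Gsn (-1.86). With age in nonventilated mice they were Ccl3 (-0.62), Tnf (-0.12), Nop58 (0.25), Gsn (0.21), Mgp (0.57) and Plcxd3, Unc5c and Pdzrn3 (each 1.25), and in ventilated mice Mmp3 (-0.65), Mgp (-0.91) and Gsn (-0.038).

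With Csf1r at 0 to 2 UMIs the shares were 3.43, 4.69 and 7.60% in the young nonventilated, young ventilated and aged ventilated libraries, 106 genes were lower with age in nonventilated and 51 higher in ventilated mice. The study's limits on genes and UMIs left out the same 2 barcodes as the setting without fibroblast-marker barcodes and gave the same gene values, and under those limits the aged ventilated share was 5.29%. In both, 96 genes were lower with age in nonventilated mice, the specific granule median in young mice was 1.50, and the ribosomal medians were -0.95 and -0.78. Ratios that turned were Unc5c and Nop58 (each 0.21) and Mgp (0.48) in young and Dcn (-3.72), Mmp3 (-1.13), Gsn (-1.62) and Apoe (-1.76) in aged mice after ventilation. With age they were Plcxd3, Unc5c and Pdzrn3 (each 1.24), Gsn (0.32) and Mgp (0.72) in nonventilated and Dcn and Mmp3 (each -0.11) in ventilated mice.

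Median-of-ratios scaling gave 561 higher and 236 lower in young and 366 and 236 in aged mice after ventilation, and 50 higher and 130 lower with age in ventilated mice. The aged interferon median was then 1.76 and the ribosomal medians -0.84 and 0.051. Combined with leaving out the 2 barcodes, it gave 455 and 231 in young and 387 and 209 in aged mice, 60 and 94 with age in nonventilated and 50 and 98 in ventilated mice, an aged interferon median of 1.86 and a young ribosomal median of -0.45. There Unc5c and Nop58 (each 0.71) and Mgp (0.97) turned in young and Dcn (-3.28), Mmp3 (-0.69), Gsn (-1.18) and Apoe (-1.31) in aged mice. With age, Plcxd3, Unc5c and Pdzrn3 (each 1.16), Gsn (0.25) and Mgp (0.65) turned in nonventilated and Dcn and Mmp3 (each -0.24) and Apoe (-0.12) in ventilated mice.

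With cells thinned to 1000 UMIs, 151 genes were higher and 173 lower in young and 151 higher and 107 lower in aged mice, 16 were higher and 32 lower with age in nonventilated and 45 higher in ventilated mice. The aged interferon median was 1.86 and the ribosomal medians were -1.08 and -0.57. Mmp3 (-0.14), Gsn (-0.59) and Apoe (-0.72) turned in aged mice after ventilation, and Plcxd3 and Unc5c (each 0.064), Pdzrn3 (1.06), Bbs9 (0.48) and Gsn (0.14) with age in nonventilated mice. With the mean CPM per cell, 102 genes were lower with age in nonventilated mice and the ribosomal medians were -1.03 and -0.67. A minimum mean of 10 CPM gave 386 higher in aged mice after ventilation, 274 lower with age in nonventilated mice, and 246 higher and 109 lower in ventilated mice. With no minimum, genes with no UMI were counted through the 1 UMI added, and the numbers were 775 and 5641 in young, 655 and 25956 in aged, 22702 and 1154 with age in nonventilated and 2135 and 1852 in ventilated mice.

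Depth limits the aged nonventilated library most, with 33 neutrophils, where 1 UMI is worth 7.51 CPM.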

Other observations

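Several smaller gene groups of neutrophils belong to none of the accounts above. Of 4 leukotriene and prostaglandin genes kept, 1 was lower in young and 0 in aged mice, with medians of -0.61 and -0.43 beside -0.35 and -0.31 over all genes, so that the list did not stand apart from the general shift. Alox5, the enzyme that begins leukotriene synthesis, was at 109, 33.2, 135 and 77.3 CPM, while Ptgs2, the inducible cyclooxygenase, was at 1132, 636, 1052 and 630 CPM. Padi4, which citrullinates histones when extracellular traps form, was at 129, 46.1, 105 and 51.0 CPM. In the hypoxia and glycolysis list 2 genes were higher and 2 lower of 15 kept in young mice, and 2 higher and 4 lower in aged mice, beside 10.4 and 25.3% of all genes in young and 8.4 and 19.9% in aged mice. Without the 2 fibroblast-marker barcodes 1 was higher and 1 lower in young mice. Slc2a3, a glucose transporter, was at 568, 155, 691 and 237 CPM and Pgk1, a glycolytic enzyme, at 31.5, 135, 45.1 and 165 CPM, so that transporter and enzyme differed in opposite directions.

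Within each library, neutrophils that gave more of their UMIs to S100a8 and S100a9 also gave more to specific granule genes, with Spearman correlations across cells of 0.30, 0.54, 0.35 and 0.53. The correlation with immediate early genes was -0.19, -0.66, -0.22 and -0.40. The rule chose the cells by S100a8 and S100a9, so that both sets of correlations involve genes used for the choice. These cells share a library, and a share of UMIs taken by 1 group lowers the share left for others, so that the values are a description with no test. They were computed over 68, 99, 33 and 108 cells, without the 2 fibroblast-marker barcodes.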
